A study of Danio rerio with 24 samples.

Results

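Protocadherins are the 55 genes of the count tables whose gene symbol begins with pcdh in lower case, among 26878 genes in all. They were followed in bulk RNA sequencing of pools of whole zebrafish larvae, with 4 libraries in each of 6 groups. The first genotype, labelled huc:gal4:gcry:RFP together with UAS:fynY531F:gcry:GFP, carries the pan-neural *elavl3* (huC) promoter driving Gal4 and a UAS transgene encoding a zebrafish Fyna kinase made constitutively active by loss of its inhibitory C-terminal tyrosine (fyn larvae). The second, labelled huC:gal4:gcry:RFP, carries the driver alone (Gal4 larvae), so fyn and Gal4 larvae share the Gal4 driver and its lens reporter. The third is WT, of the WIK strain, with neither transgene. Each genotype was sampled at 5 and at 3 days post-fertilization (dpf), and the study compared fyn larvae with controls and 5 dpf with 3 dpf to find genes altered by neural Fyn signaling.

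Protocadherins form the largest group of the cadherin superfamily, the calcium-dependent cell adhesion proteins. The clustered protocadherins lie in tandem arrays in which each variable first exon has its own promoter and is spliced to shared constant exons, so that single neurons express different combinations and tell their own branches from those of other cells. The non-clustered protocadherins, mostly of the delta1 and delta2 families, are single genes expressed in overlapping patterns in the developing brain, where they act in cell sorting, axon growth and synapse formation. In mice, alpha-protocadherins were first found as binding partners of Fyn.

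The transgene was read through *fyna*, from which it was made. *fyna* reached 824 to 975 CPM (counts scaled to a common library size) in fyn larvae at 3 dpf, against 69.0 to 82.2 CPM in Gal4 larvae and 85.0 to 91.1 CPM in WT larvae. At 5 dpf it lay between 140 and 271 CPM in fyn larvae, against 82.9 to 91.6 CPM in Gal4 larvae and 76.1 to 92.7 CPM in WT larvae, so all fyn libraries carried the excess and it was smaller at 5 dpf. The libraries held 11386498 to 30549128 counts each. All CPM values are scaled by trimmed mean of M values (TMM) factors over the 24 libraries. Because whole larvae were sequenced, fewer cells of a type and less RNA per cell cannot be told apart.

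One library stood apart. Gal4 replicate 3 at 5 dpf gave the protocadherins 442 CPM in all before scaling, against 1227 to 1400 CPM in the other Gal4 libraries of that age, and its TMM factor was 0.612, against 0.94 to 1.09 in the other 23 libraries. Of the 42 members with enough counts to be tested, 39 had their lowest Gal4 value at 5 dpf in this library. Single members ranged widely: *pcdh1a* had 0.35 CPM there, against 13.7 to 16.8 CPM in replicates 1, 2 and 4, while *pcdh18a* had 63.0 CPM against 57.6 to 64.3 CPM. Values printed below that use the Gal4 larvae of 5 dpf are also given without this library where the call differs.

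**Figure D1:**
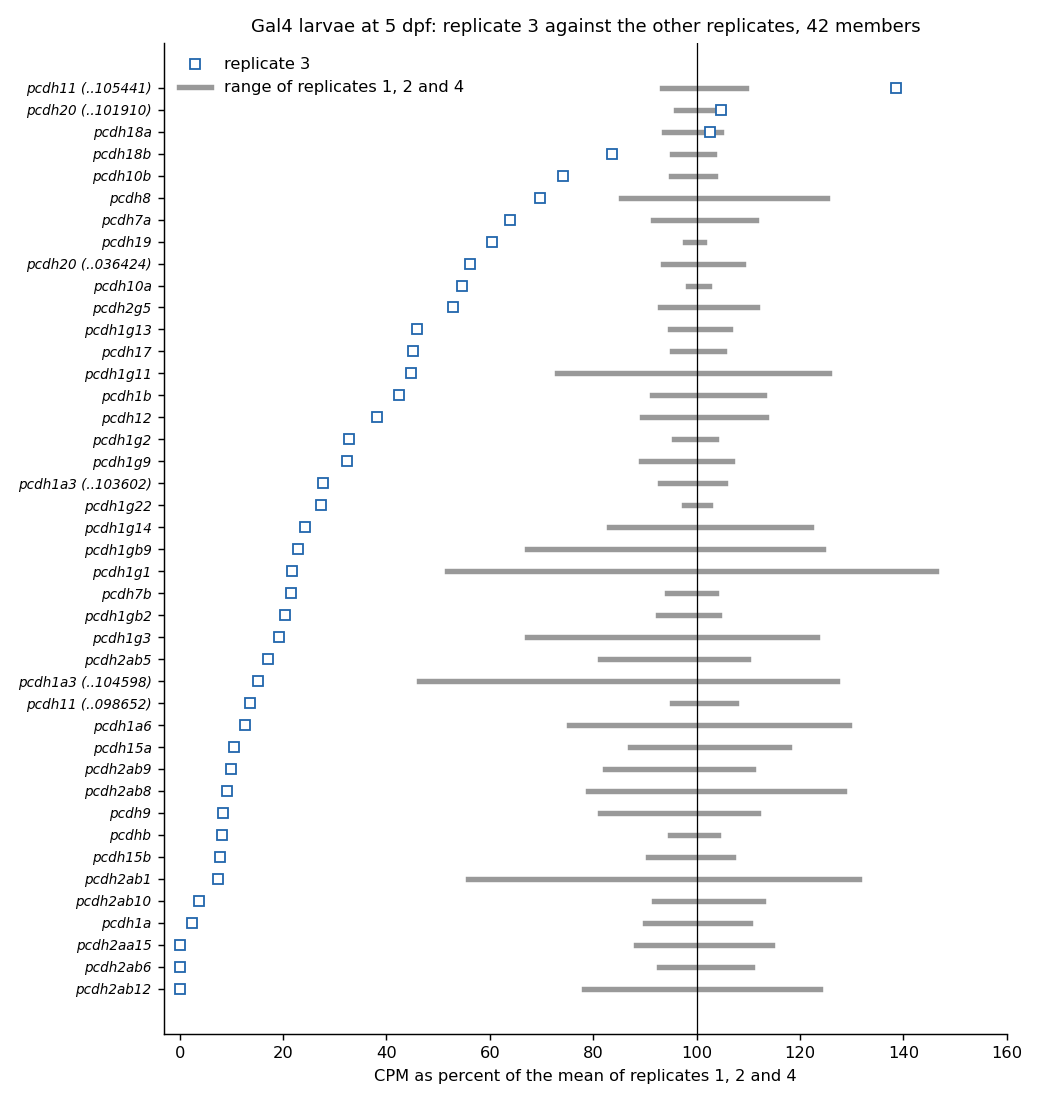
Level of each of the 42 tested protocadherin genes in Gal4 replicate 3 at 5 dpf (open squares), as percent of the mean CPM of replicates 1, 2 and 4, whose own range is the grey bar. The squares run from 0% for *pcdh2ab12*, *pcdh2ab6* and *pcdh2aa15* to 139% for the *pcdh11* gene ENSDARG00000105441, and 39 of the 42 are the lowest of the 4 libraries.

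Of the 55 members, 35 are clustered and 20 are single genes. Of these, cluster 1 (GRCz11, chromosome 10, 21559605 to 21820133, plus strand) holds 3 pcdh1a and 19 pcdh1g genes. Cluster 2 (chromosome 14, 1887677 to 2327853, minus strand) holds 10 pcdh2ab genes, 2 pcdh2aa genes and *pcdh2g5*. Further genes on the same strand overlap these spans, and only members are counted and ordered below. In cluster 1 they include *CT737184.2* (977 counts over the 24 libraries). In cluster 2 they include *si:dkeyp-115d7.2* (476 counts), *si:ch73-379j16.2* (421 counts) and *PCDHB15* (188 counts). *PCDHB15* is a protocadherin by its symbol, but the symbol is in capitals, so the match left it out. Among the single genes, *pcdhb* (2337973 to 2369849) was classed by its name, although it lies directly beside cluster 2 on the same strand. All 22 gene models of cluster 1 and 12 of the 13 of cluster 2 overlap another member on the same strand. In each cluster, 8 models end at one and the same base. Reads from the shared 3′ stretch cannot be assigned to a single variable exon, and the sources used here do not say how the counting treated them, so values of clustered members are uncertain. The 4 symbols *pcdh1a3*, *pcdh2ab2*, *pcdh11* and *pcdh20* each stand for 2 gene identifiers, which are kept apart below.

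The single genes took 72.0% of the 400858 counts of all members over the 24 libraries, and *pcdh2g5* alone took 22.1%. Cluster 1 took 3.81% and the pcdh2ab and pcdh2aa genes together 2.04%. *pcdh2g5* (ENSDARG00000098788, chromosome 14, 1887677 to 2032753, minus strand) has a summed exon length of 30619 bases. The other clustered members have 2394 to 20230 bases, so the level of *pcdh2g5* is read per kilobase. It is the only pcdh2g gene model, and whether it joins several variable exons was not tested.

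Per kilobase, the most abundant members were *pcdh10a* (23.7 CPM per kb over the 24 libraries), *pcdh10b* (22.7 CPM per kb) and *pcdh17* (21.9 CPM per kb), all delta2 genes. *Pcdh10* and *Pcdh17* are known in mice for their part in axon growth through the forebrain. *pcdh7b* (11.4 CPM per kb), the delta1 counterpart of the *Xenopus* NF-protocadherin of ectoderm and retinal axons, and *pcdh18a* (10.4 CPM per kb), a delta2 gene, followed. *pcdh2g5* came to 7.99 CPM per kb and ranked 9 of 55. The clustered members with the next highest values were *pcdh1gb2* at 1.49 CPM per kb, *pcdh1gb9* at 1.47 CPM per kb and *pcdh1g13* at 1.12 CPM per kb.

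In cluster 1 the genes with the fewest counts lay together at the end. Read in the direction of transcription, the first 13 genes, from *pcdh1a3* to *pcdh1g22*, held 294 to 2983 counts each over the 24 libraries, and the last 9, from *pcdh1g18* to *pcdh1g32*, held 5 to 30 counts each. The cut between them was placed after these counts were seen, where they drop. The highest of the last 9 is thus below the lowest of the first 13 by the choice of the cut. Exon lengths were 4321 to 5282 bases against 2394 to 8178 bases. Among the first 13 the counts did not fall steadily, with 2983 at *pcdh1g9*, 436 at the next gene, *pcdh1g11*, and 1151 at *pcdh1g22*. Within the pcdh1a genes, *pcdh1a6* had the highest value per kilobase (0.43 CPM per kb), above the *pcdh1a3* genes ENSDARG00000104598 (0.37 CPM per kb) and ENSDARG00000103602 (0.15 CPM per kb), which share the same span. Cluster 2 was also divided after its counts were seen. There, 8 genes with an alpha name (pcdh2aa or pcdh2ab) held 436 to 2040 counts each. The other 4 (*pcdh2aa1*, *pcdh2ab3* and both *pcdh2ab2* genes) held 6 to 58 counts each. Per kilobase, *pcdh2ab10* (0.93 CPM per kb), *pcdh2ab12* (0.74 CPM per kb), *pcdh2aa15* (0.67 CPM per kb) and *pcdh2ab1* (0.54 CPM per kb) led these genes, while *pcdh2aa1* stood at 0.051 CPM per kb. In counts, *pcdh2ab9* (2040, at 20230 bases) and *pcdh2ab8* (1424, at 8298 bases) were above *pcdh2ab10* (1179, at 3470 bases). The 13 members with at most 58 counts, 9 in cluster 1 and 4 in cluster 2, were tested in no comparison, and the same 42 members were tested in all 11.

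**Figure D2:**
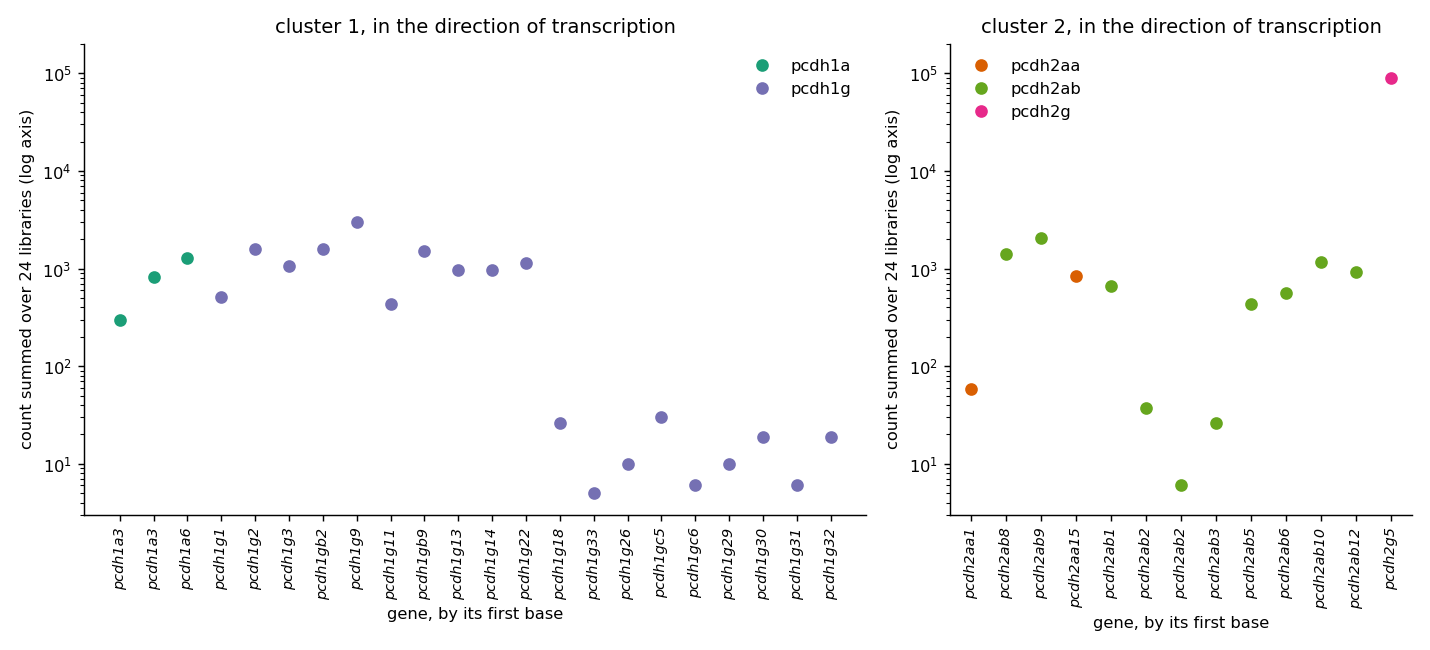
Counts summed over the 24 libraries (log axis) for the 22 genes of cluster 1 and the 13 of cluster 2, in the order of their first base along the transcribed strand. The last 9 genes of cluster 1 lie between 5 and 30 counts, below the 294 to 2983 of the first 13, and *pcdh2g5*, at the end of cluster 2, holds 88669.

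The member that differed most between fyn larvae and both controls was *pcdh8* (ENSDARG00000006467, chromosome 9, 53654866 to 53666031, minus strand), a delta2 gene known as paraxial protocadherin for its role in early mesoderm, whose rat counterpart arcadlin is induced in neurons by synaptic activity. At 5 dpf *pcdh8* measured 6.54, 6.17, 7.56 and 7.55 CPM in the fyn libraries, against 21.2, 15.2, 11.8 and 14.5 CPM in the Gal4 libraries and 14.1, 15.3, 15.9 and 16.1 CPM in the WT libraries. All 4 fyn values lay below all 8 control values. At 3 dpf it measured 17.8, 14.0, 20.1 and 18.5 CPM in fyn larvae, against 14.5, 17.5, 18.7 and 13.8 CPM in Gal4 larvae and 20.8, 17.2, 15.6 and 21.5 CPM in WT larvae, and the groups overlapped.

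*pcdh8* was lower in fyn than in Gal4 larvae at 5 dpf by a log2 fold change of -1.18 (SE 0.22, adjusted p = 0.020), and lower than in WT larvae by -1.14 (SE 0.11, adjusted p = 4.6e-05). At 3 dpf the log2 fold changes were 0.15 (SE 0.13, adjusted p = 0.44) and -0.08 (SE 0.13, adjusted p = 0.69). Between 3 and 5 dpf *pcdh8* fell in fyn larvae, with a log2 fold change of -1.34 (SE 0.13, adjusted p = 1.9e-05), and in WT larvae, with -0.28 (SE 0.11, adjusted p = 0.037), and measured -0.03 (SE 0.21, adjusted p = 0.94) in Gal4 larvae, and 0.07 without Gal4 replicate 3. The change with age differed between genotypes, by -1.31 for fyn against Gal4 larvae (SE 0.25, adjusted p = 0.0077) and by -1.07 for fyn against WT larvae (SE 0.17, adjusted p = 0.00056). The comparison with WT larvae was called under each of its 15 alternatives (adjusted p from 3.5e-15 to 0.00052). The comparison with Gal4 larvae at 5 dpf was lost without any 1 fyn library (adjusted p = 0.056, 0.076, 0.058 and 0.064), without Gal4 replicate 2 (0.058), with library totals as the only scaling (0.10) and with the replicate block (0.12), and gave -1.29 with adjusted p = 0.00057 without Gal4 replicate 3. The difference in the change with age against Gal4 larvae was lost with library totals as the only scaling (adjusted p = 0.066).

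**Figure D3:**
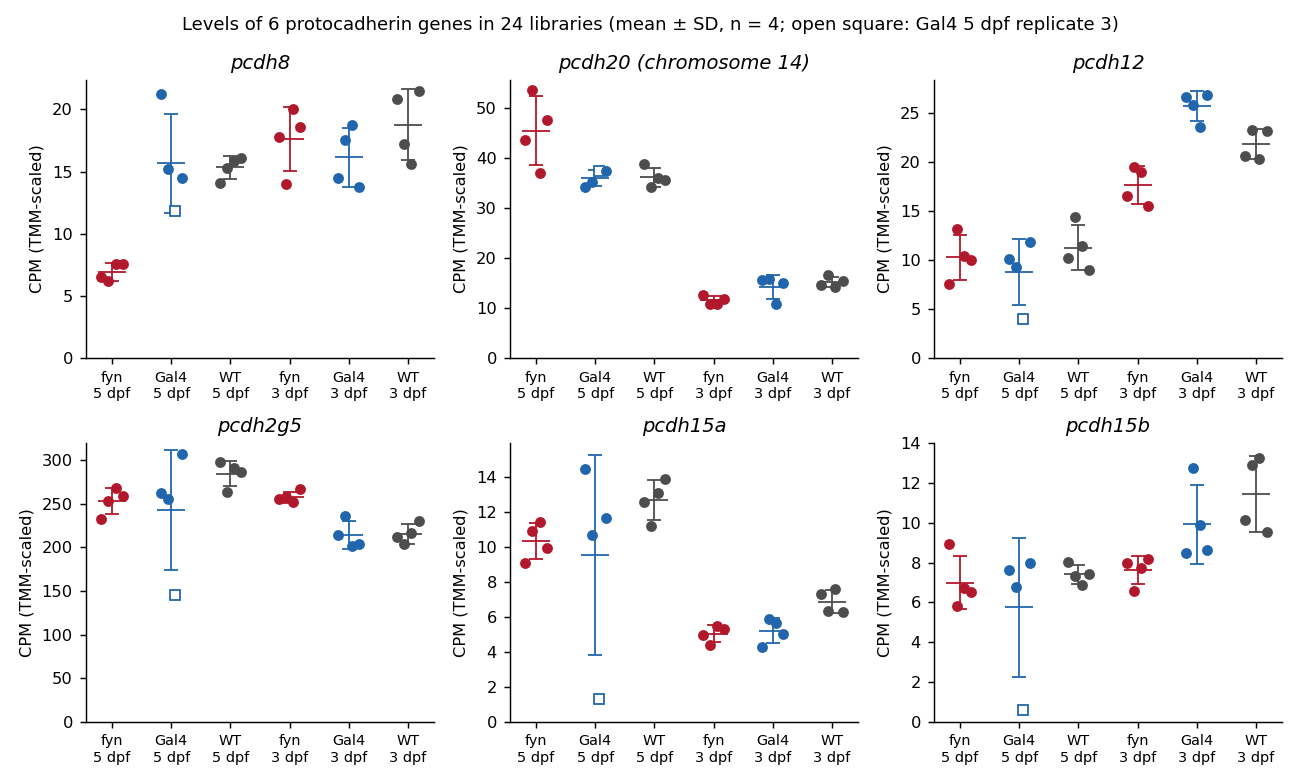
CPM of 6 protocadherin genes in each library at 5 and 3 dpf (points), with the mean and SD of the 4 libraries of a group. The open square is Gal4 replicate 3 at 5 dpf, and the *pcdh8* panel shows the 4 fyn libraries of 5 dpf between 6.17 and 7.56 CPM, below every other library.

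At 5 dpf *pcdh8* was the 1 member called lower in fyn than in Gal4 larvae, and 0 of the 42 were called higher (2.6% of all 19746 genes tested were called lower and 2% higher). In edgeR 2 members had an unadjusted p under 0.05 in either direction, and DESeq2 called 0 higher and 1 lower. Without Gal4 replicate 3 the members called lower were 3 and 0 were higher, when 11% of all genes were lower and 11.7% higher, with *pcdh11* (ENSDARG00000098652) at -0.34 (SE 0.09, adjusted p = 0.029) and *pcdh17* at -0.32 (SE 0.10, adjusted p = 0.048) besides *pcdh8*. Against WT larvae at 5 dpf, 3 members were lower and 1 was higher (14.3% of 19776 genes were lower and 14.5% higher). The 3 were *pcdh8*, *pcdh17* and *pcdh7b*. *pcdh17* measured 114, 106, 143 and 130 CPM in fyn larvae, against 151, 142, 149 and 151 CPM in WT larvae, a log2 fold change of -0.26 (SE 0.09, adjusted p = 0.044), and the highest fyn library lay within the WT range. *pcdh7b* measured 58.1, 64.3, 65.7 and 68.5 CPM in fyn larvae, against 74.4, 69.0, 74.2 and 77.7 CPM in WT larvae, with no overlap and a log2 fold change of -0.20 (SE 0.07, adjusted p = 0.049). Both calls were lost under many alternatives, 9 of 15 for *pcdh17* and 10 of 15 for *pcdh7b*. The members called against WT larvae at 5 dpf were 1 in all without any 1 of fyn replicate 2, WT replicate 3 or WT replicate 4, 2 without WT replicate 1, and 1 higher and 1 lower with library totals as the only scaling.

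The member called higher at 5 dpf was the *pcdh20* gene of chromosome 14 (ENSDARG00000101910, 14568437 to 14573041, plus strand, named *pcdh20l* in the newer symbol table). *Pcdh20* is known in mice from the layering of cortical neurons. It measured 43.6, 53.6, 37.2 and 47.7 CPM in fyn larvae at 5 dpf, against 34.3, 35.3, 37.4 and 37.5 CPM in Gal4 larvae and 38.8, 34.2, 36.1 and 35.7 CPM in WT larvae. The lowest fyn library lay within the range of both controls. At 3 dpf the order was the other way, with 12.7, 10.9, 10.9 and 11.9 CPM in fyn larvae, against 15.7, 15.8, 10.8 and 15.02 CPM in Gal4 larvae and 14.7, 16.7, 14.4 and 15.4 CPM in WT larvae, and all fyn values were below all WT values.

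Against WT larvae the chromosome 14 *pcdh20* was higher at 5 dpf (log2 fold change 0.33, SE 0.11, adjusted p = 0.037) and lower at 3 dpf (-0.39, SE 0.09, adjusted p = 0.0079). Of these, the 5 dpf call was lost under 7 of 15 alternatives (adjusted p from 0.0073 to 0.091) and the 3 dpf call under none. Against Gal4 larvae the values were 0.33 (SE 0.14, adjusted p = 0.24) and -0.29 (SE 0.12, adjusted p = 0.12). It rose with age in every genotype, by a log2 fold change of 1.98 in fyn larvae (SE 0.12, adjusted p = 1.1e-06), 1.34 in Gal4 larvae (SE 0.15, adjusted p = 0.00050) and 1.25 in WT larvae (SE 0.08, adjusted p = 1.3e-08), and these calls held under each alternative run. The rise was steeper in fyn than in WT larvae by 0.72 (SE 0.14, adjusted p = 0.0029). Against Gal4 larvae the difference was 0.63 (SE 0.20, adjusted p = 0.087), and 0.67 (SE 0.18, adjusted p = 0.017) without Gal4 replicate 3 at 5 dpf. The other *pcdh20* gene (ENSDARG00000036424, chromosome 11) was lower in fyn than in WT larvae at 3 dpf, with -0.39 (SE 0.12, adjusted p = 0.027), and its change with age did not pass the test of a difference between fyn and WT larvae (0.11, SE 0.15, adjusted p = 0.71).

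At 3 dpf, 3 members were higher and 1 was lower in fyn than in Gal4 larvae (8.88% of 19200 genes tested were higher and 9.73% lower). All 3 higher members lie in cluster 2. *pcdh2g5*, the abundant gamma gene model, measured 255, 258, 252 and 266 CPM in fyn larvae, against 215, 236, 202 and 204 CPM in Gal4 larvae and 212, 204, 217 and 230 CPM in WT larvae. All 4 fyn libraries were above all 8 controls, by log2 fold changes of 0.29 over Gal4 larvae (SE 0.06, adjusted p = 0.0051) and 0.26 over WT larvae (SE 0.05, adjusted p = 0.0030). At 5 dpf *pcdh2g5* measured 233, 254, 268 and 259 CPM in fyn larvae, against 263, 256, 146 and 307 CPM in Gal4 larvae and 298, 264, 291 and 286 CPM in WT larvae. It rose with age in WT larvae (log2 fold change 0.41, SE 0.06, adjusted p = 3.1e-05), measured -0.02 in fyn larvae (SE 0.06, adjusted p = 0.76), and the 2 changes differed by -0.44 (SE 0.08, adjusted p = 0.0016). Against Gal4 larvae the difference was -0.22 (SE 0.22, adjusted p = 0.64), and -0.39 (SE 0.10, adjusted p = 0.016) without Gal4 replicate 3.

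The other 2 were alpha-type genes. *pcdh2aa15* measured 3.24, 2.35, 3.10 and 3.85 CPM in fyn larvae, against 1.89, 2.23, 1.52 and 1.60 CPM in Gal4 larvae at 3 dpf, a log2 fold change of 0.78 (SE 0.21, adjusted p = 0.023). *pcdh2ab10* measured 3.99, 3.99, 5.79 and 4.46 CPM in fyn larvae, against 3.54, 2.90, 2.53 and 2.21 CPM in Gal4 larvae, a log2 fold change of 0.74 (SE 0.19, adjusted p = 0.020). Neither pair of groups overlapped, and both calls rested on few counts. *pcdh2aa15* lost its call under 7 of 15 alternatives and *pcdh2ab10* under 4 of 15, among them the replicate block (adjusted p = 0.071 and 0.058). Over WT larvae at 3 dpf the log2 fold changes were 0.54 (SE 0.23, adjusted p = 0.10) for *pcdh2aa15* and 0.28 (SE 0.19, adjusted p = 0.30) for *pcdh2ab10*. Of the 8 tested pcdh2ab and pcdh2aa genes, 7 had positive log2 fold changes over Gal4 larvae, and 2 passed the test. Their median was 0.44 against 0.00 over all genes, of which 9675 of 19200 were positive. The pcdh2ab and pcdh2aa gene models overlap on the same strand, so these values need not be independent. The summed level of the 12 such genes was 25.0 to 30.6 CPM in fyn larvae, against 19.99 to 24.8 CPM in Gal4 larvae and 23.4 to 28.4 CPM in WT larvae, so it overlapped that of WT. None of the 13 tested cluster 1 genes was called in this comparison by edgeR, and 0 had an unadjusted p under 0.05. DESeq2 called 4 higher and 1 lower among the 42 members. Library totals as the only scaling gave 6 and 1, all 6 groups in 1 fit gave 0, and leaving out fyn replicate 3 or Gal4 replicate 4 gave 2 members in all, against 7 without fyn replicate 2.

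The member that was lower was *pcdh12* (ENSDARG00000076594, chromosome 14, 16308840 to 16328331, minus strand), the vascular endothelial protocadherin. It measured 16.6, 19.5, 18.99 and 15.5 CPM in fyn larvae at 3 dpf, against 26.7, 25.8, 23.5 and 26.8 CPM in Gal4 larvae and 20.6, 23.2, 20.3 and 23.2 CPM in WT larvae. The fyn libraries were below all controls, with log2 fold changes of -0.52 against Gal4 larvae (SE 0.09, adjusted p = 0.0017) and -0.30 against WT larvae (SE 0.09, adjusted p = 0.028). At 5 dpf they measured 0.22 (SE 0.33, adjusted p = 0.77) against Gal4 larvae and -0.13 (SE 0.18, adjusted p = 0.64) against WT larvae, and the value against Gal4 larvae was -0.0033 (SE 0.18, adjusted p = 0.99) without Gal4 replicate 3. *pcdh12* fell with age in each genotype, by a log2 fold change of -0.77 in fyn larvae (SE 0.15, adjusted p = 0.0019), -1.52 in Gal4 larvae (SE 0.29, adjusted p = 0.0062; -1.31 without Gal4 replicate 3) and -0.94 in WT larvae (SE 0.12, adjusted p = 2.6e-05). The 10 endothelial marker genes summed to 213 to 238 CPM in fyn larvae, against 232 to 264 CPM in Gal4 larvae and 207 to 236 CPM in WT larvae at 3 dpf, and 158 to 168 CPM in fyn, 169 to 186 CPM in Gal4 and 160 to 194 CPM in WT larvae at 5 dpf, with no marker at 0. Of 9 tested, 2 were lower and 0 higher in fyn than in Gal4 larvae at 3 dpf (9.73% and 8.88% of all genes). Against WT larvae at 3 dpf 2 were lower and 1 was higher (14.8% and 12.7%). With age 6, 2 and 4 fell in fyn, Gal4 and WT larvae (25.3%, 10.4% and 28.7% of all genes). Without Gal4 replicate 3 of 5 dpf 5 fell in Gal4 larvae (29.4% of all genes). The part of these markers in the *pcdh12* result was not tested.

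**Figure D4:**
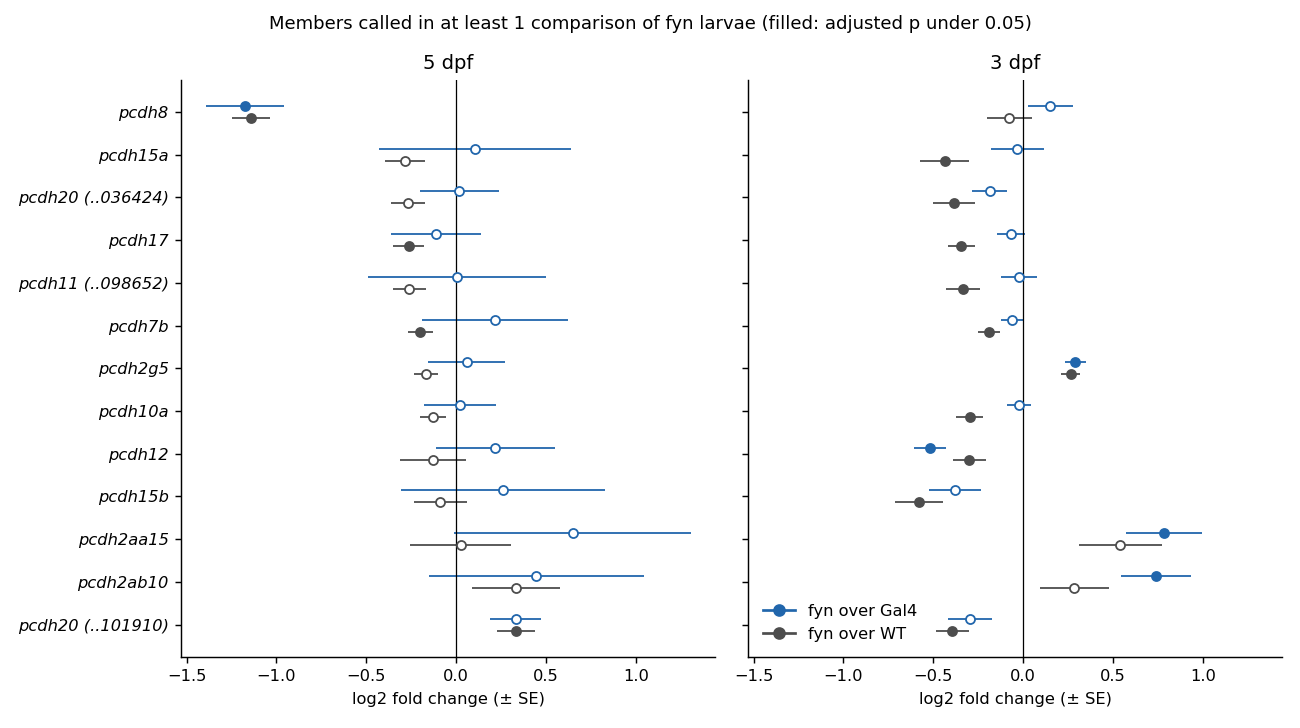
Log2 fold change with its SE of fyn over Gal4 larvae (blue) and fyn over WT larvae (grey) at 5 and 3 dpf, for the 13 members called in at least 1 of these 4 comparisons. Filled points have an adjusted p under 0.05. *pcdh8* is called against both controls at 5 dpf, at -1.18 and -1.14, and *pcdh2g5* and *pcdh12* are called against both controls at 3 dpf.

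Against WT larvae at 3 dpf, 9 members were lower and 1, *pcdh2g5*, was higher (14.8% of 19332 genes tested were lower and 12.7% higher). All 9 were single genes, of 20 tested. Besides *pcdh12* and both *pcdh20* genes they were *pcdh15b*, *pcdh15a*, *pcdh17*, *pcdh11* (ENSDARG00000098652), *pcdh10a* and *pcdh7b*. The 20 single genes had a median log2 fold change of -0.18, against -0.01 over all genes, and the 22 tested clustered genes -0.01. With all 6 groups in 1 fit, which share 1 estimate of the spread, 1 member was called in place of 10. Fyn larvae differed from WT larvae by both transgenes. In Gal4 against WT larvae at 3 dpf, 4 members were lower and 0 were higher (2.97% of 19279 genes were lower and 1.82% higher). In edgeR 11 members had an unadjusted p under 0.05 in either direction, and DESeq2 called 5 lower and 0 higher. The 4 were *pcdh19*, *pcdh11* (ENSDARG00000098652), *pcdh10a* and *pcdh17*, all but *pcdh19* among the 9 above. *pcdh10a*, for example, measured 83.5, 77.6, 80.0 and 94.4 CPM in fyn larvae, 84.8, 90.9, 87.4 and 82.7 CPM in Gal4 larvae and 104, 95.5, 114 and 101 CPM in WT larvae, so that both transgenic groups lay below every WT library. Its log2 fold change against WT larvae was -0.30 in fyn larvae (SE 0.07, adjusted p = 0.0098) and -0.27 in Gal4 larvae (SE 0.06, adjusted p = 0.034), while fyn against Gal4 larvae gave -0.02 (SE 0.07, adjusted p = 0.87). *pcdh17* likewise gave -0.35 (SE 0.07, adjusted p = 0.0046) in fyn larvae, -0.27 (SE 0.06, adjusted p = 0.024) in Gal4 larvae and -0.07 (SE 0.08, adjusted p = 0.60) between them.

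*pcdh19*, a delta2 gene that organizes neurons into columns in the zebrafish optic tectum and whose human counterpart is an epilepsy gene, measured 35.2, 42, 41.1 and 39.3 CPM in Gal4 larvae, against 46.9, 48.8, 54.4 and 49.3 CPM in WT larvae at 3 dpf. The groups did not overlap, with a log2 fold change of -0.34 (SE 0.07, adjusted p = 0.023). The *pcdh11* gene ENSDARG00000098652 measured 32.5, 38.4, 37.5 and 34.7 CPM in Gal4 larvae, against 44.3, 43.0, 41.4 and 47.3 CPM in WT larvae, also without overlap, with -0.30 (SE 0.07, adjusted p = 0.032). Calls of the driver line were lost when any of several libraries was left out. Without any 1 of Gal4 replicates 1 and 4 or WT replicates 2 and 3, 0 members were called. Without WT replicate 1 there was 1, and without Gal4 replicate 2 there were 2. Over all alternatives the log2 fold changes kept their direction, from -0.40 to -0.29 for *pcdh19*, -0.36 to -0.26 for *pcdh11* and -0.32 to -0.22 for *pcdh10a*. At 5 dpf 0 members were called between Gal4 and WT larvae by edgeR, and 0 by DESeq2 (0% of 19671 genes were higher and 0.0508% lower). No member had an unadjusted p under 0.05, and 3 did without Gal4 replicate 3. The 14 neuronal marker genes summed to 3395 to 3978 CPM in fyn larvae, 2526 to 3025 CPM in Gal4 larvae and 3238 to 3441 CPM in WT larvae at 3 dpf. In Gal4 against WT larvae 6 of 14 were lower and 0 higher, when 2.97% of all genes were lower and 1.82% higher. In fyn against WT larvae 6 of 14 were lower and 4 higher, with a median log2 fold change of -0.12. Of all genes 14.8% were lower and 12.7% higher. The 4 higher were *gap43*, a growth cone protein gene, at 1.66 (SE 0.07, adjusted p = 1.3e-08), *stmn1b* at 0.42, *elavl3* at 0.41 and *elavl4* at 0.37. The 6 lower were *syt1a* at -0.51, *nsfa* at -0.36, *rbfox1* at -0.25, *sv2a* at -0.24, *snap25b* at -0.24 and *eno2* at -0.19. Over Gal4 larvae at 3 dpf the same 4 were higher and 0 were lower (8.88% and 9.73% of all genes). The part of the 14 markers in these results was not tested.

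The genes of the tip link differed between their copies. *pcdh15a* and *pcdh15b* are co-orthologs of the mammalian deafness and blindness gene *PCDH15*, and in zebrafish *pcdh15a* serves mechanotransduction in hair cells and *pcdh15b* the photoreceptors. At 3 dpf *pcdh15b* measured 7.99, 6.57, 7.72 and 8.17 CPM in fyn larvae, against 8.48, 12.8, 9.87 and 8.61 CPM in Gal4 larvae and 10.1, 12.9, 13.3 and 9.51 CPM in WT larvae. Every fyn library was below every control, with log2 fold changes of -0.58 against WT larvae (SE 0.13, adjusted p = 0.0070) and -0.38 against Gal4 larvae (SE 0.15, adjusted p = 0.092). With age *pcdh15b* fell in WT larvae, to 8.04, 7.33, 6.85 and 7.40 CPM at 5 dpf (log2 fold change -0.63, SE 0.13, adjusted p = 0.0010), and gave -0.13 in fyn larvae (SE 0.15, adjusted p = 0.48). In Gal4 larvae it gave -0.76 (adjusted p = 0.37), and -0.43 (SE 0.16, adjusted p = 0.037) without replicate 3 of 5 dpf. The changes in fyn and WT larvae differed by 0.48 (SE 0.20), which did not pass the test (adjusted p = 0.14). The 12 photoreceptor markers summed to 674 to 1075 CPM in fyn larvae, against 862 to 2152 CPM in Gal4 larvae and 1793 to 3148 CPM in WT larvae at 3 dpf, with 11 of 12 lower in fyn than in WT larvae and none at 0. At 5 dpf they summed to 1341 to 2223 CPM in fyn and 3501 to 4041 CPM in WT larvae, with 11 of 12 lower in fyn larvae. Of all genes 14.8% were lower in fyn than in WT larvae at 3 dpf and 14.3% at 5 dpf. With age 8 markers rose and 2 fell in fyn larvae (27% and 25.3% of all genes). In WT larvae 7 rose and 3 fell (29.3% and 28.7%). Neither *pcdh15* gene was called between fyn and WT larvae at 5 dpf. The part of these markers in the *pcdh15b* result was not tested.

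*pcdh15a* moved the other way with age. It measured 9.08, 10.9, 11.4 and 9.92 CPM in fyn larvae at 5 dpf, against 4.97, 4.38, 5.48 and 5.29 CPM at 3 dpf, and 12.6, 11.2, 13.1 and 13.9 CPM in WT larvae at 5 dpf, against 7.33, 6.34, 7.57 and 6.27 CPM at 3 dpf. The ages did not overlap, and *pcdh15a* rose by a log2 fold change of 1.04 in fyn larvae (SE 0.12, adjusted p = 7.2e-05) and 0.88 in WT larvae (SE 0.11, adjusted p = 1.9e-05). In Gal4 larvae it measured 14.5, 10.7, 1.29 and 11.7 CPM at 5 dpf, against 4.28, 5.87, 5.65 and 5.03 CPM at 3 dpf, which gave 0.89 (SE 0.55, adjusted p = 0.28), and 1.22 (SE 0.15, adjusted p = 3.2e-05) without replicate 3. The hair cell markers summed to 162 to 211 CPM at 5 dpf, against 82.3 to 98.1 CPM at 3 dpf in fyn larvae, and to 177 to 202 CPM at 5 dpf, against 88.9 to 98.8 CPM at 3 dpf in WT larvae. Of 10 tested, 4 rose with age in fyn and 5 in WT larvae (27% and 29.3% of all genes). None of the markers fell, and none was at 0 in any group. Their part in the *pcdh15a* result was not tested. *pcdh15a* was also lower in fyn than in WT larvae at 3 dpf (-0.44, SE 0.14, adjusted p = 0.029), a call lost under 6 of 15 alternatives.

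With age, most single genes rose in fyn and in WT larvae, while the share of clustered genes that fell was below that of all genes. In fyn larvae 12 members rose and 4 fell between 3 and 5 dpf (27% of 19691 genes tested rose and 25.3% fell), in Gal4 larvae 4 rose and 1 fell (15.4% of 19534 genes rose and 10.4% fell), and in WT larvae 13 rose and 8 fell (29.3% of 19589 genes rose and 28.7% fell). Without Gal4 replicate 3 at 5 dpf the Gal4 counts became 16 and 2 (29.6% of all genes rose and 29.4% fell), and with library totals as the only scaling 2 and 1. All 12 genes that rose in fyn larvae were single genes, of 20 tested, as were 12 of the 13 in WT larvae, the other being *pcdh2g5*. Of the 22 tested clustered genes 0 rose and 2 fell in fyn larvae, 0 rose and 0 fell in Gal4 larvae, where 0 had an unadjusted p under 0.05 (2 rose without replicate 3, *pcdh1gb2* and *pcdh2g5*), and 1 rose and 5 fell in WT larvae. The median log2 fold changes of the single genes were 0.34 in fyn, 0.32 in Gal4 and 0.30 in WT larvae, those of the clustered genes -0.17, -0.11 and -0.13, and those of all genes 0.00, 0.02 and 0.00. Without replicate 3 the Gal4 median of the single genes was 0.55 and that of the clustered genes 0.16, so the negative clustered median of Gal4 larvae rested on that library.

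**Figure D5:**
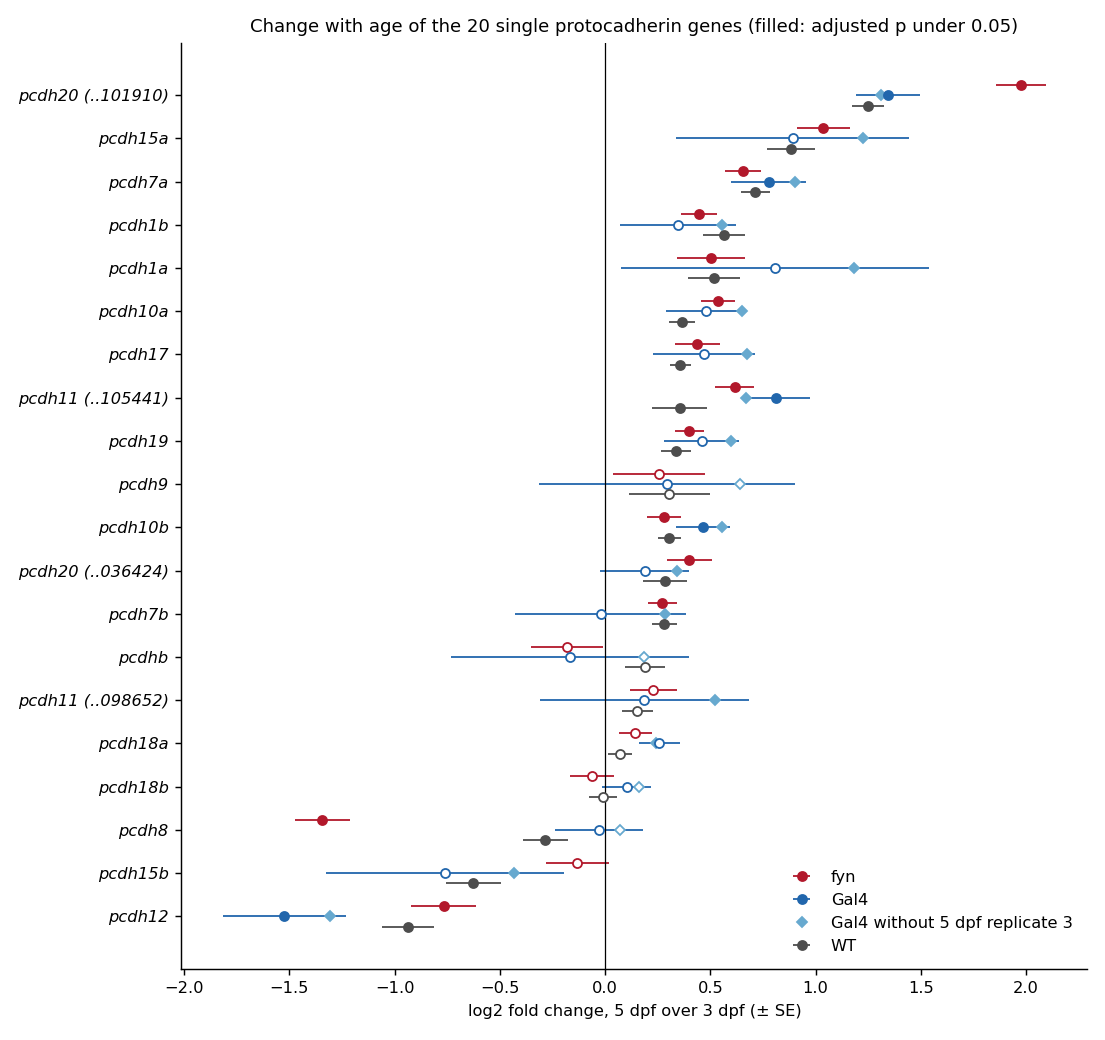
Log2 fold change of 5 dpf over 3 dpf with its SE for the 20 single protocadherin genes in fyn (red), Gal4 (blue) and WT (grey) larvae, with the Gal4 value without replicate 3 of 5 dpf as a diamond and filled symbols for an adjusted p under 0.05. The *pcdh20* gene ENSDARG00000101910 leads in all genotypes, and *pcdh8* is at -1.34 in fyn larvae against -0.03 in Gal4 and -0.28 in WT larvae.

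Among the delta1 genes 5 of 7 rose in fyn larvae and 5 of 7 in WT larvae, 2 in Gal4 larvae and 6 without replicate 3, and none fell. Of all genes 27% rose and 25.3% fell in fyn larvae, and 29.3% and 28.7% in WT larvae. The shares in Gal4 larvae were 15.4% and 10.4%, and 29.6% and 29.4% without replicate 3. The 7 include both *pcdh11* genes, whose models overlap. *pcdh7a* measured 85.0, 96.6, 110 and 102 CPM in fyn larvae at 5 dpf, against 57.9, 58.2, 66.7 and 66.8 CPM at 3 dpf. In Gal4 larvae it measured 98.2, 92.7, 64.6 and 113 CPM at 5 dpf, against 47.7, 62.1, 51.5 and 55.3 CPM at 3 dpf. In WT larvae it measured 99.5, 91.2, 97.8 and 105 CPM at 5 dpf, against 53.7, 58.4, 65.2 and 63.6 CPM at 3 dpf. No genotype's ages overlapped, and the log2 fold changes were 0.65 in fyn (SE 0.09, adjusted p = 0.00013), 0.78 in Gal4 (SE 0.18, adjusted p = 0.013) and 0.71 in WT larvae (SE 0.07, adjusted p = 1.3e-06). *pcdh1a* and *pcdh1b*, counterparts of the *Xenopus* axial protocadherin, rose by 0.50 and 0.45 in fyn larvae and by 0.52 and 0.56 in WT larvae. *pcdh9*, the least abundant delta1 gene, passed no test, with values of 0.26, 0.29 and 0.30 in fyn, Gal4 and WT larvae, the Gal4 value being 0.64 (adjusted p = 0.099) without replicate 3 of 5 dpf.

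The 2 *pcdh11* genes of the files lie end to start on the minus strand of chromosome 14 and overlap by 1449 bases, ENSDARG00000098652 (27120406 to 27297123) upstream and ENSDARG00000105441 (26995114 to 27121854) downstream. Reads of the overlap can be split between them. The downstream gene rose by 0.62 in fyn (SE 0.09, adjusted p = 0.00030), 0.81 in Gal4 (SE 0.16, adjusted p = 0.0073) and 0.35 in WT larvae (SE 0.13, adjusted p = 0.034), while the upstream gene gave 0.23 (SE 0.11, adjusted p = 0.11), 0.19 (SE 0.50, adjusted p = 0.82) and 0.15 (SE 0.07, adjusted p = 0.087) in fyn, Gal4 and WT larvae. Without Gal4 replicate 3 of 5 dpf the upstream gene rose in Gal4 larvae, by 0.52 (SE 0.08, adjusted p = 0.00014). In Gal4 replicate 3 at 5 dpf they parted: the downstream gene had 32.0 CPM, against 21.6 to 25.3 CPM in the other 3 libraries, and the upstream gene 7.01 CPM, against 48.9 to 55.2 CPM.

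The 9 genes grouped here as delta2 include both *pcdh20* genes, a choice of this grouping. Of the 9, 6 rose and 1, *pcdh8*, fell in fyn larvae, and the same 6 rose and *pcdh8* fell in WT larvae. The 6 were *pcdh10a*, *pcdh10b*, *pcdh17*, *pcdh19* and both *pcdh20* genes. In Gal4 larvae 2 rose, and 7 without replicate 3, *pcdh18a* being the seventh. Of all genes 27% rose and 25.3% fell in fyn larvae, and 29.3% and 28.7% in WT larvae. The shares in Gal4 larvae were 15.4% and 10.4%, and 29.6% and 29.4% without replicate 3. *pcdh10b* measured 100, 105, 126 and 119 CPM in fyn larvae at 5 dpf, against 92.4, 85.9, 94.8 and 98.1 CPM at 3 dpf, and rose in all genotypes, with log2 fold changes of 0.28 in fyn (SE 0.08, adjusted p = 0.014), 0.46 in Gal4 (SE 0.13, adjusted p = 0.028) and 0.30 in WT larvae (SE 0.05, adjusted p = 0.00032). The *pcdh18* genes, which act in cell movement in the early zebrafish embryo, did not pass the test in any genotype over all libraries. *pcdh18a* gave 0.14, 0.26 and 0.07 in fyn, Gal4 and WT larvae and *pcdh18b* -0.06, 0.10 and -0.01, while without Gal4 replicate 3 the Gal4 values were 0.24 (adjusted p = 0.012) and 0.16 (adjusted p = 0.075).

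The clustered genes that fell were mostly of the pcdh2ab class. Of its 7 tested genes 2 fell in fyn, 0 in Gal4 and 3 in WT larvae. The shares of all genes that fell were 25.3%, 10.4% and 28.7%. In WT larvae *pcdh2ab9* (-0.59, SE 0.17, adjusted p = 0.0090), *pcdh2ab10* (-0.54, SE 0.21, adjusted p = 0.042) and *pcdh2ab8* (-0.49, SE 0.19, adjusted p = 0.040) fell, with the cluster 1 genes *pcdh1g1* (-0.93, SE 0.27, adjusted p = 0.0096) and *pcdh1g13* (-0.57, SE 0.18, adjusted p = 0.016). In fyn larvae *pcdh2ab1* (-0.70, SE 0.21, adjusted p = 0.019) and *pcdh2ab9* (-0.48, SE 0.18, adjusted p = 0.043) fell. All 7 tested pcdh2ab genes had negative values in each genotype over all libraries, with medians of -0.48 in fyn, -0.51 in Gal4 and -0.49 in WT larvae. Of all genes, 9888 of 19691 in fyn, 9950 of 19534 in Gal4 and 9747 of 19589 in WT larvae had positive values. The pcdh2ab gene models overlap on the same strand, so the 7 values need not be independent. *pcdh2ab1* measured 0.93, 1.53, 1.32 and 1.19 CPM in fyn larvae at 5 dpf, against 2.26, 1.88, 1.93 and 2.13 CPM at 3 dpf, without overlap. *pcdh1g1* measured 1.03, 1.05, 0.62 and 1.20 CPM in WT larvae at 5 dpf, against 1.58, 2.42, 1.66 and 1.77 CPM at 3 dpf, also without overlap. Without replicate 3 the Gal4 median was -0.19 and 6 of the 7 were negative, *pcdh2ab10* being at 0.12 (SE 0.21, adjusted p = 0.63). With library totals as the only scaling the median of all genes shifted to -0.10 in fyn, -0.19 in Gal4 and -0.15 in WT larvae.

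The change with age was tested between fyn larvae and each control for the 42 members with enough counts. Against Gal4 larvae, 1 member was called with a negative difference in fyn larvae, *pcdh8*, and 0 with a positive one (1.72% of 20358 genes tested were called negative and 2.43% positive). In edgeR 3 members had an unadjusted p under 0.05 in either direction, and DESeq2 called 1 positive and 1 negative. Without Gal4 replicate 3 at 5 dpf, 3 were called negative (*pcdh8*, *pcdh2g5* and *pcdh1a*) and 1 positive (the chromosome 14 *pcdh20*). Of all genes 6.48% were then called negative and 9.4% positive. Without Gal4 replicate 3 at 3 dpf 1 member was called negative and 1 positive. Against WT larvae, 2 were called negative, *pcdh8* and *pcdh2g5*, and 1 positive, the chromosome 14 *pcdh20* (5.47% of 20340 genes were called negative and 6.23% positive). These 3 calls held without any 1 of the 16 libraries, and with all 6 groups in 1 fit the *pcdh2g5* call was lost (-0.43, adjusted p = 0.29).

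Proteins known to act with protocadherins, among them Fyn, focal adhesion kinases and the WAVE complex, were read from 25 genes of the tables, 24 of them tested. The counts of these lists are to be read beside the shares of all genes, which were 8.88% higher and 9.73% lower against Gal4 larvae and 12.7% higher and 14.8% lower against WT larvae at 3 dpf, and 2% and 2.6% against Gal4 larvae and 14.5% and 14.3% against WT larvae at 5 dpf. In fyn against Gal4 larvae 4 were higher and 0 lower at 3 dpf, and at 5 dpf 1 was higher, *fyna*, and 0 lower. At 3 dpf these were *fyna* itself, *ret* (0.63, SE 0.06, adjusted p = 3.4e-05), a receptor tyrosine kinase that phosphorylates clustered protocadherins in mice, *ptk2aa* (0.46, SE 0.08, adjusted p = 0.0016), a focal adhesion kinase, and *cdh2* (0.29, SE 0.09, adjusted p = 0.035), the N-cadherin that binds Pcdh19 in zebrafish. Against WT larvae 6 were higher and 1 lower at 3 dpf, and 2 were higher and 3 lower at 5 dpf. Each count of higher partners given here includes *fyna*, whose call was fixed in advance by the transgene. Of 23 genes for promoter choice and DNA looping, 0 were higher and 4 lower than in Gal4 larvae at 3 dpf, and 0 were higher and 1 lower at 5 dpf. The gene lower at 5 dpf was *ctcf*, whose product binds the promoters of clustered protocadherins in mammals, at -0.85 (SE 0.19, adjusted p = 0.040) against Gal4 larvae (-0.71, adjusted p = 0.0041, without Gal4 replicate 3) and -0.62 (SE 0.15, adjusted p = 0.012) against WT larvae at 5 dpf. Of the 41 other cadherins 2 were higher and 4 lower than in Gal4 larvae at 3 dpf, of 35 tested, and 1 was higher and 1 lower at 5 dpf, of 36 tested. Oligodendrocyte markers had 1 higher and 1 lower of 9 at 3 dpf and 0 of 10 at 5 dpf, and markers of other larval tissues had 1 higher and 5 lower of 10 at 3 dpf and 0 higher and 2 lower of 11 at 5 dpf. Without Gal4 replicate 3 the comparison with Gal4 larvae at 5 dpf gave 1 higher and 2 lower of the partners, 1 and 3 of the looping factors, 5 and 3 of the other cadherins, 1 and 2 of the oligodendrocyte markers and 1 and 4 of the markers of other tissues, when 11.7% of all genes were higher and 11% lower.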

How the data were processed

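RNA of pooled whole larvae was sequenced as poly(A)-selected paired-end libraries. The submitters' processing notes list HISAT2 2.0.5, StringTie 1.3.3b, featureCounts 1.5.0-p3 and GRCz11, and the authors deposited raw, unnormalized counts per gene. The sources used here do not give strand settings or say how reads overlapping several genes were treated. The 9 deposited count tables, 1 per pair of groups, were joined on the gene identifier, and the 1205864 counts present in more than 1 table were identical. The authors' own fold changes and p-values were not used, nor were 144 other per-sample columns (FPKM and normalized values) and 27 tables of genes chosen by the authors' test.

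The counts of each comparison's own groups were fitted for all genes with edgeR 4.0.16 in R 4.3.3 (filterByExpr, TMM, quasi-likelihood test, 2-sided). P-values were adjusted by Benjamini-Hochberg over all genes tested, and the threshold for a call was 0.05. The SE is the absolute log2 fold change over the square root of F. The change with age was compared between genotypes by the interaction term. The fits were tested on simulated data. CPM values use TMM factors over the 24 libraries. Depths were 11386498 to 30549128 counts per library. Nothing says that the replicates came from separate clutches, so p-values measure the spread between these pools.

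Alternatives were RLE size factors, library totals alone, no filter on low counts, a minimum of 10 counts per library, all 6 groups in 1 fit, the replicate number as a block, DESeq2 1.42.0, and leaving out each library. Members are all symbols that begin with pcdh in lower case. Those named are up to 3 called members per direction and comparison with the largest change at a mean of 1 CPM or more, the 5 with the highest level per kb, the 3 highest of each clustered class, and *fyna*. Further members named were chosen after their values were seen. Members and gene lists (markers of neurons, hair cells, photoreceptors, endothelium, oligodendrocytes and other larval tissues, protocadherin partners, looping factors, other cadherins) were chosen with earlier results of these data known.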

Additional observations from a re-analysis of the deposited data

Results flagged for a closer look

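Of 162 groups of 4 libraries examined for the members described, 10 held a library far from the other 3, and chance alone gives about 1 such group in 20. Gal4 replicate 3 at 5 dpf was that library in 8 of the 10, each time the lowest. *pcdh15b* had 0.584 CPM there, against 6.75 to 7.98 CPM in the other 3 libraries, *pcdh1a3* (ENSDARG00000103602) 0.234 CPM against 0.782 to 0.888 CPM, and *pcdh1gb2* 1.05 CPM against 4.78 to 5.39 CPM. *pcdh11* (ENSDARG00000098652) had 7.01 CPM against 48.9 to 55.2 CPM, *pcdh7b* 14.7 CPM against 64.4 to 70.9 CPM, and *pcdh19* 36.0 CPM against 58.2 to 60.4 CPM. Among the most abundant members, *pcdh10a* had 73.6 CPM against 133 to 138 CPM and *pcdh17* 69.6 CPM against 147 to 162 CPM. The part of RNA quality or library preparation in this library was not tested.

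The other 2 were *pcdh20* (ENSDARG00000101910) in Gal4 replicate 3 at 3 dpf, with 10.8 CPM against 15.02 to 15.8 CPM, and *pcdh2aa1* in WT replicate 3 at 3 dpf, with 0.361 CPM against 0.285 to 0.295 CPM. *pcdh2aa1* held 58 counts over the 24 libraries and was tested in no comparison, so its gap rests on very few reads.

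The change with age differed between genotypes, by the interaction term in edgeR, in 4 cases. *pcdh8* differed by -1.31 on the log2 scale for fyn against Gal4 larvae and by -1.07 for fyn against WT larvae. *pcdh20* (ENSDARG00000101910) differed by 0.72 and *pcdh2g5* by -0.44 for fyn against WT larvae.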

How the results depend on the processing

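Of 36 calls of named members, 16 were kept under every alternative, and of their 571 alternative values 489 stayed past the threshold, 82 did not and 0 changed direction. The number of members called moved by more than 1.5 times under the following choices, and the cause was not tested. With all 6 groups in 1 fit it was 0 for fyn against Gal4 larvae at 3 dpf (4 in the comparison's own fit) and 2 at 5 dpf (1), 1 for fyn against WT larvae at 3 dpf (10) and 1 at 5 dpf (4), 0 for Gal4 against WT larvae at 3 dpf (4), 11 for age in Gal4 larvae (5), 9 for age in WT larvae (21) and 2 for the change with age between fyn and Gal4 larvae (1). With library totals as the only scaling it was 7 for fyn against Gal4 larvae at 3 dpf and 0 at 5 dpf, 2 for fyn against WT larvae at 5 dpf, 3 for age in Gal4 larvae and 0 for the change with age between fyn and Gal4 larvae, where DESeq2 called 2. The median of all genes then shifted to 0.14 for fyn against Gal4 and -0.11 for Gal4 against WT larvae at 5 dpf.

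Replicate numbers did not pair the libraries (correlations of same-numbered deviations from -0.21 to 0.18, in no comparison all over 0.1). With the replicate number as a block, 2 members were called for fyn against Gal4 larvae at 3 dpf, 0 at 5 dpf and 2 for Gal4 against WT larvae at 3 dpf.

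Leaving out 1 library at a time, the members called ranged from 2 to 7 for fyn against Gal4 larvae at 3 dpf and from 0 to 3 at 5 dpf, from 7 to 9 for fyn against WT larvae at 3 dpf and from 1 to 4 at 5 dpf, and from 0 to 4 for Gal4 against WT larvae at 3 dpf. With age they ranged from 14 to 17 in fyn, 4 to 18 in Gal4 and 17 to 20 in WT larvae, and from 1 to 4 for the change with age between fyn and Gal4 larvae. The 18, and the highest counts for fyn against Gal4 larvae at 5 dpf and for the change with age between them, came without Gal4 replicate 3 at 5 dpf. The 13 members with at most 58 counts over 24 libraries could not be tested at this depth.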
